A study of Mus musculus with 23 samples.

Results

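The medium by RAS interaction in ERF wild-type cells is the change in expression from 2iL to FA after RAS deletion minus the same change with RAS present. It separates the parts of the FA response that were altered by RAS deletion from those that ran alike without it. It was computed from 11 of the 23 RNA-seq libraries of the series, those of the 4 ERF wild-type groups, and 20372 of 53607 genes had enough counts to be tested.

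All 4 groups were mouse embryonic stem cells of the background H-Ras-/-, N-Ras-/- with the remaining RAS gene flanked by loxP sites (floxed) and a tamoxifen-activated Cre recombinase driven by a ubiquitin promoter (Ubiq-CreERT2). The controls therefore already lacked 2 RAS genes by label, and deletion of the last one was what set the groups apart. Cells with RAS present were sequenced in 2iL (n = 3) and after 48 h in FA (n = 2). Cells with RAS deleted had received 4-hydroxytamoxifen for 6 days and were sequenced in 2iL (n = 3) and after 48 h in FA (n = 3). No untreated Cre-negative or tamoxifen-only group was used here, so effects of the drug and of the deletion cannot be told apart. 2iL holds inhibitors of MEK and of GSK3 together with LIF. FA holds 12 ng/ml FGF2, 20 ng/ml Activin A and 1% knockout serum replacement, on fibronectin. The labels do not say whether replicates were separate cultures, so p-values measure only spread within the groups of the 23-library model, which may be technical.

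RAS proteins pass the signal of FGF receptors through RAF and MEK to the kinase ERK, which activates transcription of its own feedback inhibitors. In mouse embryonic stem cells, MEK inhibition holds the naive state of the preimplantation epiblast, whereas FGF and Activin signalling moves cells toward a formative, postimplantation epiblast state. Activin acts through SMAD2 and SMAD3 rather than through RAS, and the switch of medium also withdraws LIF and the GSK3 inhibitor.

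The 11 libraries held 17.2 to 29.9 M counts. Of the target genes, Erf stood at 56.5 to 90.2 CPM (counts scaled to a library size of 1 M), and its interaction was -0.04 (log2, SE 0.20). Hras and Nras, labelled as null in all groups, still had counts in every library, and their interactions of -0.25 (SE 0.14) and 0.63 (SE 0.82) were not called. The first principal component of the 2000 most variable genes, with 66.4% of the variance, placed the 2iL libraries at -31.9 to -29.8, the FA libraries with RAS at 57.0 and 58.1, and the FA libraries without RAS at 13.6 to 33.5. On this component the RAS-deleted FA libraries were thus spread more widely than the others, with library 1 nearest to 2iL and library 3 farthest from it. Over all tested genes, the root mean square SD of log2(CPM + 1) was 0.237 in that group and 0.236 in FA with RAS. Library 1 of each of the 4 groups had a raised level of genes on chromosome 8, with a median log2 deviation of 0.173 to 0.232 from its group. This deviation was shared by the 4 groups, and 2412 genes were called for the interaction without those libraries against 2425 with them, of which 1734 were the same. That leaves 1 FA library with RAS, which is then assumed to vary as the other groups do, here and wherever a library of that group is left out.

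A gene was called at an adjusted p under 0.05 and a difference of at least 2-fold in edgeR's quasi-likelihood test. In FA with RAS, 2691 genes were higher (13.2% of those tested) and 2200 were lower (10.8%). Without RAS, 2029 were higher (9.96%) and 1342 lower (6.59%). The interaction itself was called for 2425 genes, or 11.9% of those tested. It was positive for 1345 genes (6.60%) and negative for 1080 (5.30%). The balance of signs depends on the tool, since limma voom with sample weights called 1164 positive and 1301 negative. A positive interaction means that FA raised a gene more, or lowered it less, without RAS.

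The 4891 genes of the FA response with RAS were sorted by how they behaved without RAS. For 1640 of them (8.05% of tested genes, 33.5% of the response) the response was smaller without RAS, with a called interaction opposite in sign to the response; 746 of these rose and 894 fell in FA. Their median FA change went from 2.32 with RAS to 0.30 without it for the rising genes, and from -2.23 to -0.22 for the falling genes (log2). With the genes at 3 or fewer counts in a group set to that floor, these medians were 2.19 and 0.26, and -2.13 and -0.23. Of the 1640 genes, 1090 kept under 25% of their log2 response, while 550 kept between 25% and 75%. The class requires an interaction of at least 2-fold against the response, so these low shares and medians follow in part from that choice. After RAS deletion 329 were still called in the same direction, 1202 were not called, and 109 were called in the opposite direction.

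A response that ran alike without RAS was shown for 353 genes (1.73% of tested genes, 7.22% of the response). These were called in the same direction in both lines, and the 95% interval of their interaction lay within 2-fold either way. Of these, 197 rose and 156 fell, with medians of 1.54 with RAS and 1.48 without for the rises, and -1.47 and -1.42 for the falls. The response was larger without RAS for 52 genes (0.255% of tested genes). For the other 2846 genes of the response (58.2% of the response), the data did not decide between these outcomes. A further 427 genes (2.10% of tested genes) were called for FA only without RAS and had a called interaction, 257 of them higher and 170 lower in FA. The alike class is the one that rests most on the width of its interval: 78 genes had an interaction interval within 1.5-fold.

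**Figure D1:**
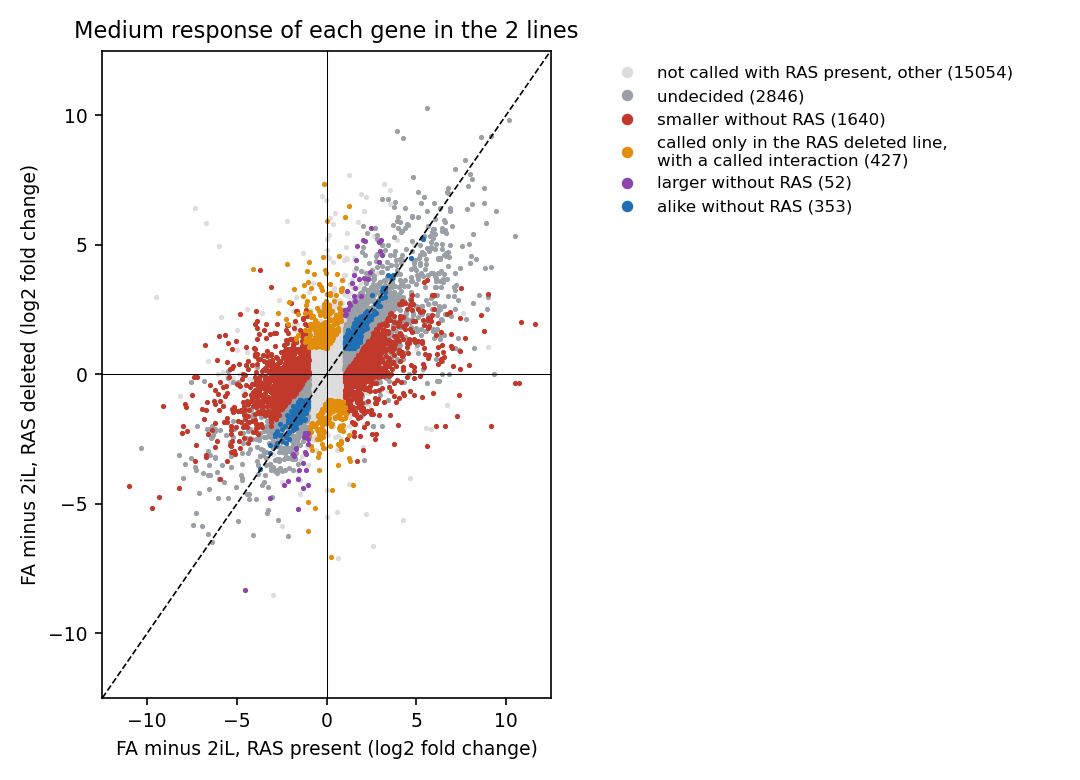
FA minus 2iL log2 fold change of each tested gene with RAS present (x axis) and with RAS deleted (y axis), coloured by class; the dashed line marks equal responses. The 1640 genes with a smaller response lie toward the horizontal axis and the 353 alike genes lie along the dashed line, while the most extreme points include genes at the floor in a group, whose fitted fold change is not a bound.

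Because the libraries with RAS both chose these genes and entered the interaction, the genes were also chosen in the line labelled ERF knockout with RAS present, which shares no library with the 4 groups. Erf stood at 50.7 to 129 CPM in that line, so its counts do not show the knockout and the genotype is given as labelled. Of 2499 genes higher in FA there, 617 (24.7%) had a negative called interaction and 50 (2.00%) a positive one, with a median of -0.84. Of 1519 lower genes, 609 (40.1%) had a positive called interaction and 21 (1.38%) a negative one, with a median of 1.06. The median FA change of the higher genes was 1.86 with RAS and 0.95 without. For the lower genes it was -1.75 with RAS and -0.71 without. The extent of the whole response in a library was measured as the slope of its FA change on that of the ERF knockout line, over the same genes and on the log2(CPM + 1) scale. The slope was 1.00 and 1.04 in the FA libraries with RAS, and 0.392, 0.497 and 0.558 in libraries 1, 2 and 3 without RAS (0.482 ± 0.0839, SD, n = 3). The ranges did not overlap, and without RAS the slope was 0.518 ± 0.0704 (SD, n = 3) over the rises and 0.429 ± 0.104 (SD, n = 3) over the falls. In each of the 3 libraries without RAS the slope was higher over the rises than over the falls; this difference was not tested.

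**Figure D2:**
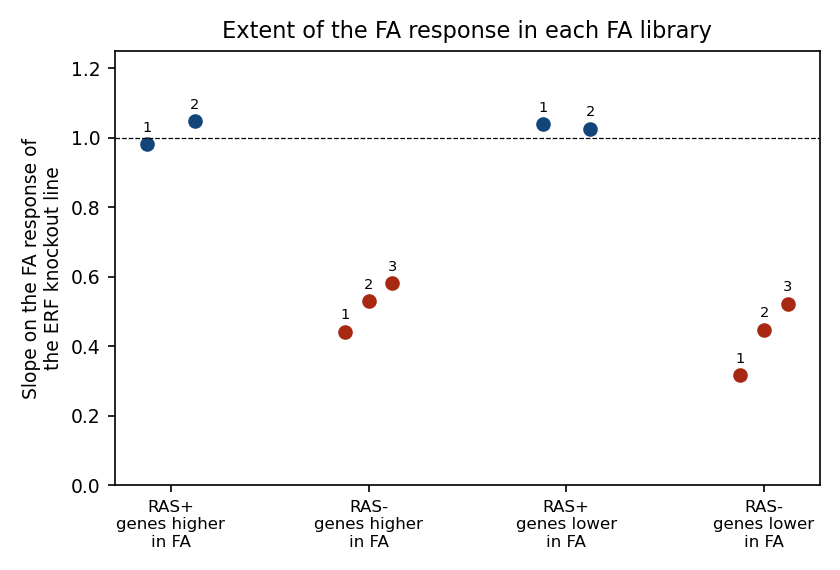
Slope of each FA library on the FA response of the line labelled ERF knockout, for genes that rose (2499) and fell (1519) there; each point is 1 library with its number, and the dashed line marks a slope of 1. Libraries with RAS sit between 0.981 and 1.05, and those without RAS between 0.317 and 0.582, with library 1 lowest and library 3 highest in both gene sets.

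Of the feedback and target genes of ERK signalling, 21 members of a list of 22 were tested; 12 had a negative called interaction (background 5.30%), 1 a positive one (background 6.60%) and 8 none. The median interaction was -2.17, against -0.01 over all tested genes, and the median FA change went from 1.55 to 0.01. Of the 21, 10 belonged to the class with a smaller response, and Spry2 and Etv4 were called for FA only without RAS.

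Spry4, a Sprouty inhibitor of receptor tyrosine kinase signalling, stood at 0.630, 0.536 and 0.604 CPM in 2iL and at 38.3 and 25.6 CPM in FA with RAS. Without RAS it stood at 0.215, 0.203 and 0.194 CPM in 2iL and at 0.0876, 0.527 and 0.395 CPM in FA. All 3 RAS-deleted FA libraries stayed far below those with RAS, libraries 2 and 3 above and library 1 below their 2iL levels, with an interaction of -4.99 (SE 0.72, edgeR adjusted p 1.41e-05). Il17rd (Sef), a membrane inhibitor of FGF signalling, went from 38.6, 32.3 and 31.6 CPM to 175 and 171 CPM with RAS, and from 36.7, 33.5 and 36.2 CPM to 21.1, 15.7 and 15.8 CPM without it. Its FA libraries without RAS lay below every 2iL library, so FA raised Il17rd with RAS (log2 2.34) and lowered it without (-1.02), and the interaction was -3.35 (SE 0.15, edgeR adjusted p 2.92e-13). Spred1, which inhibits RAF activation, behaved likewise: its log2 FA change was 2.00 with RAS and -1.10 without.

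Spry2 was already transcribed in 2iL, at 32.3 to 46.0 CPM with RAS and 39.8 to 47.8 CPM without. In FA it stood at 64.9 and 60.5 CPM with RAS but at 2.94, 3.44 and 5.14 CPM without, an interaction of -4.15 (SE 0.22, edgeR adjusted p 1.9e-11). The RAS-deleted FA libraries were thus below every 2iL library, in which MEK was inhibited. Etv4, an ETS factor of the PEA3 group induced by FGF, fell from 30.3, 38.0 and 40.4 CPM to 2.59, 4.82 and 5.64 CPM without RAS. With RAS it stood at 42.4, 52.8 and 53.7 CPM in 2iL and at 39.6 and 35.5 CPM in FA, so that, unlike Spry2, it was lower in FA in both lines, though not called with RAS. Dusp6, a cytoplasmic ERK phosphatase, kept a part of its response: it went from 5.92 to 9.24 CPM up to 138 and 155 CPM with RAS, and from 5.22 to 9.15 CPM up to 12.3, 21.3 and 25.4 CPM without. Its interaction was -2.90 (SE 0.32, edgeR adjusted p 2.44e-06), and its FA change without RAS (log2 1.35) was still called.

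Myc, a growth-promoting transcription factor, stood at 0.175 to 0.609 CPM in all 6 2iL libraries. It reached 46.4 and 35.5 CPM in FA with RAS and 0.833, 1.70 and 5.32 CPM without, with an interaction of -4.47 (SE 0.96, edgeR adjusted p 0.00215). Every FA library without RAS was above all 2iL libraries and below both FA libraries with RAS. Spred3, Dusp4, Etv1, Egr1 and Phlda1 also had negative called interactions, from -2.68 for Egr1 to -1.28 for Phlda1. Fos, an immediate early gene, was the positive one, with an interaction of 1.18 that lost its call in 14 of 22 settings. The call of Egr1 was lost without FA library 1 with RAS (-1.12, adjusted p 0.215) and without 2iL library 1 of the line without RAS (adjusted p 0.0564). Spry1 (-0.67), Spred2 (-0.27) and Etv5 (-0.38) were among the 8 members without a called interaction.

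The naive pluripotency genes, which FA silences, mostly had positive interactions. All 17 listed members were tested; 13 had a positive called interaction (background 6.60%) and Gbx2 a negative one. The median interaction was 2.43, and the median FA change went from -3.36 with RAS to -1.06 without it. The class with a smaller response held 13 members, and Klf5 alone was shown to respond alike.

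Prdm14, a PR-domain regulator that maintains naive cells and represses FGF receptor signalling, stood at 31.5, 33.8 and 40.4 CPM in 2iL and at 0.792 and 0.616 CPM in FA with RAS. Without RAS it stood at 37.0, 36.2 and 39.3 CPM in 2iL and still at 35.8, 24.8 and 22.1 CPM in FA. Its interaction of 5.17 (SE 0.35, edgeR adjusted p 1.04e-09) was the most positive of the list, and the FA change without RAS (log2 -0.45) was not called. Zfp42 (Rex1), a zinc finger marker of the naive state, fell from 258, 267 and 283 CPM to 36.8 and 21.2 CPM with RAS. Without RAS its FA libraries, at 442, 348 and 307 CPM, lay inside or above its 2iL range of 263 to 322 CPM, and the interaction was 3.56 (SE 0.27, edgeR adjusted p 2.06e-08). Nanog, a homeobox factor of the naive network, stood at 93.6 and 100 CPM in FA with RAS and at 588, 453 and 331 CPM in FA without, from 525 to 626 CPM in 2iL.

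Other naive factors fell without RAS, but less far. Klf4, a Krüppel-like factor downstream of LIF, went from 219, 241 and 253 CPM to 3.56 and 3.36 CPM with RAS, and from 233, 221 and 233 CPM to 46.4, 35.1 and 32.6 CPM without. Both falls were called (log2 -6.10 and -2.59), and the interaction was 3.50 (SE 0.20, edgeR adjusted p 4.59e-11). Esrrb, an orphan nuclear receptor, ended at 31.9 and 22.3 CPM with RAS and at 221, 185 and 173 CPM without, from 377 to 450 CPM in 2iL. The remaining positive interactions of the list were those of Klf2, Tfcp2l1, Tbx3, Nr0b1, Tcl1, Dppa3, Nr5a2 and Fgf4, from 1.41 for Fgf4 to 3.03 for Nr5a2.

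Klf5, also a Krüppel-like factor, stood at 224, 254 and 244 CPM in 2iL and 61.4 and 59.5 CPM in FA with RAS, and at 186, 217 and 232 CPM in 2iL and 45.4, 64.6 and 74.0 CPM in FA without. The FA libraries of the lines overlapped, and the interaction of 0.20 had a 95% interval of -0.19 to 0.60. Tdh, the threonine dehydrogenase of naive cells, fell strongly in both lines (log2 -5.52 and -4.80), but the interval of its interaction, -0.49 to 1.95, was too wide to place it. Gbx2 went the other way from its list: it rose with RAS, from 3.54, 3.93 and 6.09 CPM to 32.3 and 28.5 CPM, and stood at 6.34, 8.37 and 9.29 CPM in 2iL and 3.59, 6.20 and 8.95 CPM in FA without (interaction -3.10, SE 0.35).

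**Figure D3:**
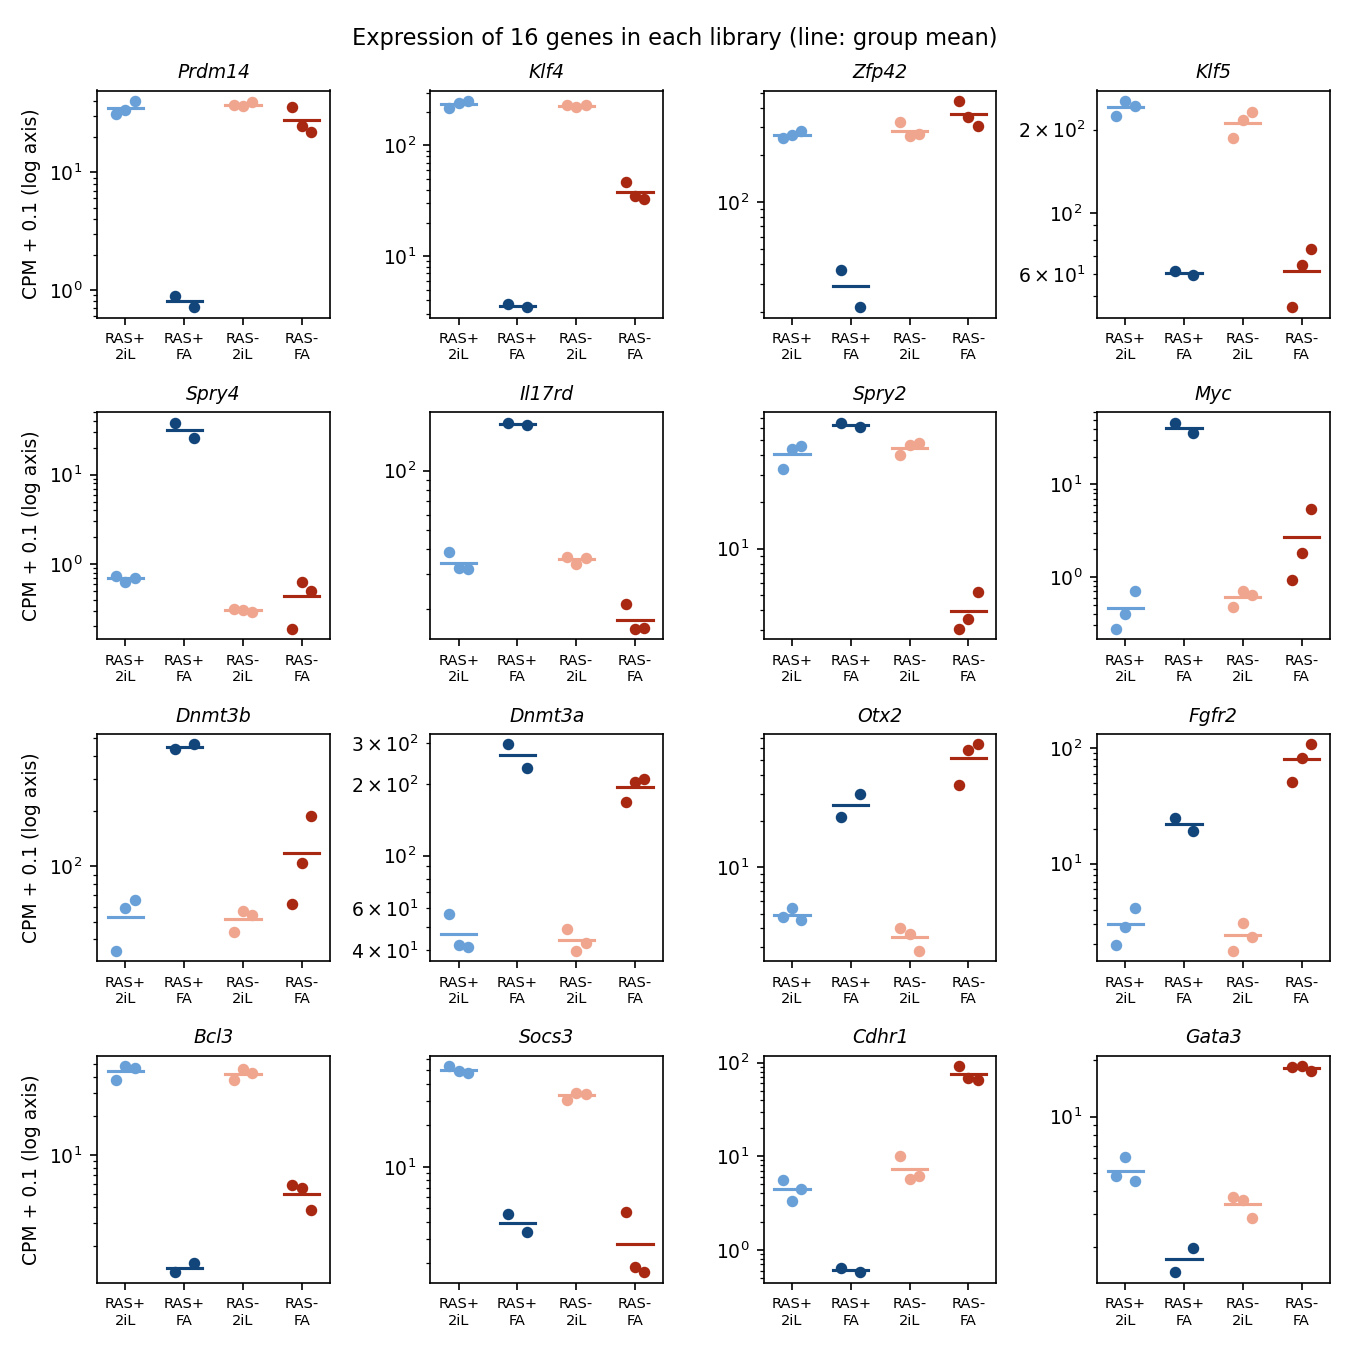
CPM + 0.1 on a log axis in each library for 16 genes; points are libraries, drawn from library 1 on the left to the last on the right, lines are group means, RAS+ is RAS present and RAS- is RAS deleted. In FA without RAS, Prdm14 and Zfp42 stay above and Spry4 and Il17rd stay below the levels seen in FA with RAS. Klf5 and Socs3 have overlapping FA levels in both lines, and Otx2 and Fgfr2 are highest in FA without RAS.

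The formative and primed epiblast genes split. Of 16 tested members, 7 had a negative called interaction (background 5.30%) and 1 a positive one (background 6.60%), with a median of -1.01, and the median FA change went from 2.72 to 1.92. A smaller response was found for 6 members, a larger one for Otx2, and an alike one for Dnmt3a, Zic2 and Zic5. The medians did not move when Fgf5, the member with a group at the floor, was set to that floor.

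Dnmt3b, a de novo DNA methyltransferase, went from 34.7, 59.3 and 65.4 CPM to 437 and 463 CPM with RAS, and from 44.0, 57.1 and 54.1 CPM to 62.0, 105 and 187 CPM without. All FA libraries without RAS lay below both with RAS, and the interaction was -1.90 (SE 0.42, edgeR adjusted p 0.00328). Pou3f1 (Oct6), a POU factor of the early postimplantation epiblast, reached 59.1 and 85.4 CPM with RAS and 4.38, 9.44 and 19.2 CPM without, from 2.60 to 4.13 CPM in 2iL. Lin28b, an inhibitor of let-7 maturation, had an interaction of -2.37 (SE 0.30, edgeR adjusted p 3.62e-06).

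Lef1, a DNA-binding partner of beta-catenin, stood at 8.33, 21.4 and 46.8 CPM in FA without RAS, against 107 and 79.8 CPM with RAS. Its interaction of -2.79 (SE 0.83, edgeR adjusted p 0.0224) lost its call without 2iL library 2 of the line without RAS (adjusted p 0.0568), without 2iL library 3 with RAS (0.0517) and without FA library 1 with RAS (0.0609). Fgf5, the marker ligand of the formative epiblast, was at the floor in 2iL with RAS; it stood at 30.7 and 41.0 CPM in FA with RAS and at 1.71, 7.13 and 20.6 CPM in FA without, and its interaction was not called. In Dnmt3b, Pou3f1, Lef1, Fgf5 and Myc alike, library 1 was lowest and library 3 highest among the RAS-deleted FA libraries, the same order as in the slope of the whole response. These genes were picked after their values were seen, and not every rising gene followed that order: Spry4 and Sox11 were highest in library 2.

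Dnmt3a, the other de novo methyltransferase, did not share the loss seen in Dnmt3b. It rose from 56.6, 42.0 and 41.2 CPM to 295 and 235 CPM with RAS and from 48.9, 39.6 and 42.8 CPM to 169, 204 and 210 CPM without; its interaction was -0.35 (95% interval -0.71 to 0.00). Its FA libraries without RAS all lay below both with RAS, by less than the 2-fold limit. Zic5 and Zic2, zinc finger factors, rose by 1.63 and 1.60 (log2) with RAS and by 1.64 and 1.91 without. Otx2, a homeobox factor that drives the exit from the naive state, went from 4.66, 5.36 and 4.46 CPM to 21.3 and 30.1 CPM with RAS and from 3.93, 3.55 and 2.76 CPM to 34.4, 58.3 and 63.6 CPM without. All 3 RAS-deleted FA libraries exceeded both FA libraries with RAS, and its interaction was 1.52 (SE 0.29, edgeR adjusted p 5.83e-04).

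Of 7 general pluripotency genes, Sox2 had a positive (background 6.60%) and Utf1 a negative called interaction (background 5.30%). Sox2 fell with RAS, from 229, 288 and 260 CPM to 72.9 and 93.0 CPM, and stood at 264, 271 and 237 CPM in FA without (interaction 1.70, SE 0.17). Utf1, a chromatin factor, rose in both lines, less without RAS (interaction -1.02). Its interaction was -0.84, under the 2-fold limit, when library 2 of the FA group with RAS was left out. It was also under that limit when library 1 of the RAS-deleted FA group (-0.88) or of the RAS-deleted 2iL group (-0.99) was left out. Pou5f1 (Oct4) was not called, at 0.31.

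Among FGF ligands and receptors, 2 of 9 tested members were called, both positive (background 6.60%), and the median interaction was 0.27 (0.13 to 0.55 across processing settings). Fgfr2 went from 1.89, 2.74 and 4.04 CPM to 24.5 and 18.8 CPM with RAS and from 1.67, 2.99 and 2.23 CPM to 50.3, 80.9 and 107 CPM without. The receptor was highest in the 3 libraries without RAS, and its response was larger there, with an interaction of 2.17 (SE 0.46, edgeR adjusted p 0.00187). Fgf4, an FGF ligand made by naive cells, stood at 118 and 125 CPM in FA with RAS and at 267, 241 and 204 CPM without, and neither FA change alone reached 2-fold.

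Of 12 tested Nodal and Activin targets, 1 had a positive (background 6.60%) and 1 a negative called interaction (background 5.30%); the median FA change was 0.83 with RAS and 0.71 without, and the median interaction was -0.33. These shares are near the background, as is the count of 0 alike members (background 1.73%). Lefty1, a secreted Nodal inhibitor and direct SMAD2/3 target, went from 0.630, 0.417 and 0.139 CPM to 476 and 486 CPM with RAS and from 0.753, 0.710 and 0.581 CPM to 514, 591 and 741 CPM without. Its FA levels were at least as high in every RAS-deleted library as in those with RAS, and its interaction was -0.34 (95% interval -1.27 to 0.58). Lefty2 reached 126 and 119 CPM with RAS and 148, 138 and 197 CPM without. The intervals of both genes reach past 2-fold, so their responses were not shown to be alike within that width.

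The called members were Tdgf1 (Cripto), the Nodal co-receptor, and Fst, the Activin-binding inhibitor follistatin. Tdgf1 stood at 188, 166 and 167 CPM in 2iL and 307 and 268 CPM in FA with RAS, and at 119, 102 and 123 CPM in 2iL and 55.3, 65.3 and 83.1 CPM in FA without. FA libraries lay above 2iL with RAS and below it without, and only the difference between these changes was called (interaction -1.48, SE 0.19, edgeR adjusted p 7.29e-06). Fst fell with RAS (log2 -1.62) and was not called without (0.64), with an interaction of 2.25.

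Of 11 tested Wnt and beta-catenin targets, 5 had a negative called interaction (background 5.30%) and 1 a positive one (background 6.60%), with a median of -1.56. Axin2, the negative-feedback scaffold of the pathway, stood at 9.35, 15.0 and 19.6 CPM in 2iL and 19.6 and 13.3 CPM in FA with RAS, and at 30.3, 46.1 and 43.6 CPM in 2iL and 5.39, 5.43 and 6.83 CPM in FA without. Its groups without RAS were therefore above those with RAS in 2iL and below them in FA, and both differences enter the interaction of -2.94 (SE 0.32). Cdx1, a caudal homeobox gene, fell with RAS from 29.6, 24.9 and 30.7 CPM to 1.69 and 0.663 CPM and fell further without, from 51.0, 42.6 and 41.8 CPM to 0.263, 0.0810 and 0.0719 CPM. Dkk1, a secreted Wnt inhibitor, rose with RAS, to 6.84 and 1.94 CPM (interaction -4.95), and Rnf43 and Nkd1 were the other negative ones; Rnf43 lost its call without FA library 1 with RAS and without 2iL library 2 of the line without RAS. Notum, which inactivates Wnt ligands, fell with RAS and stood at 35.5, 30.8 and 37.7 CPM in FA without, against 15.5 to 19.9 CPM in 2iL (interaction 3.03).

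Of 10 targets and components of LIF and STAT3 signalling, 5 fell in FA with RAS (background 10.8%) and 4 without (background 6.59%). The list had 3 positive called interactions (background 6.60%) and no negative one, with a median of 0.59. Socs3, the feedback inhibitor induced directly by STAT3, fell alike: from 53.5, 49.2 and 47.9 CPM to 4.43 and 3.27 CPM with RAS, and from 30.3, 34.2 and 33.7 CPM to 4.64, 1.78 and 1.62 CPM without. Its interaction was 0.05 (95% interval -0.65 to 0.75). Bcl3, an IkappaB family protein, fell less without RAS, from 37.5, 45.6 and 42.8 CPM to 5.74, 5.47 and 3.67 CPM, than with RAS, from 37.5, 48.2 and 46.5 CPM to 1.15 and 1.37 CPM (interaction 2.04, SE 0.24). Lifr, the LIF receptor, fell with RAS and was not called without (interaction 1.06). That value went under the 2-fold limit when library 2 of the FA group with RAS was left out (0.97). It did so too when library 1 of the RAS-deleted 2iL group or library 3 of the 2iL group with RAS was left out (0.99 each).

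**Figure D4:**
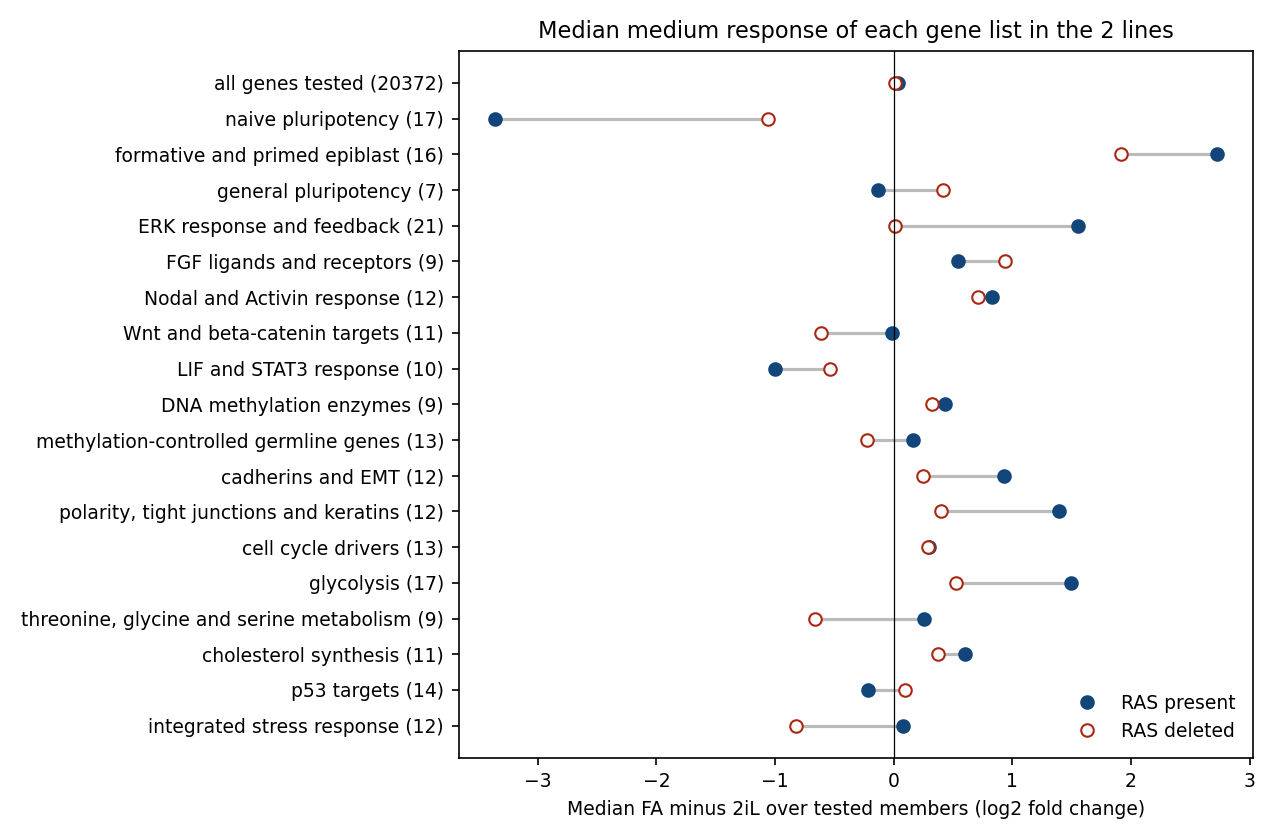
Median FA minus 2iL log2 fold change over the tested members of each gene list (number in brackets), with RAS present (filled) and RAS deleted (open). The naive list moved from -3.36 to -1.06 and the ERK list from 1.55 to 0.01, while the Nodal and Activin list stood at 0.83 and 0.71 and all tested genes at 0.03 and 0.01.

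The enzymes of DNA methylation had 1 call among 9 tested (background 11.9% in either direction), Dnmt3b. Of 13 germline genes controlled by methylation, 3 were positive (background 6.60%) and 2 negative (background 5.30%). Dazl, an RNA-binding protein of germ cells, fell with RAS from 102, 103 and 91.4 CPM to 9.21 and 12.8 CPM and stood at 60.0, 64.9 and 47.4 CPM in FA without (interaction 2.53, SE 0.31). Rpl10l was also positive (1.37), while Mael, a piRNA pathway protein, was negative (-1.73, and -0.98 without library 2 of the FA group with RAS). Mov10l1, the other negative call, lost it in 10 of 22 settings and was at -0.32 without that library. Stk31, the remaining positive call, was at 0.85 without library 1 of the FA group with RAS. The median interaction of this list, -0.34, changed sign across processing settings (-0.92 to 0.52).

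Of 12 cadherin and EMT genes, 2 were positive (background 6.60%) and 2, Epcam and Vim, were negative (background 5.30%). Without library 1 of the FA group with RAS, the interaction of Vim was -0.73, under the 2-fold limit. Epcam, an epithelial adhesion molecule, rose with RAS from 50.9, 31.6 and 30.3 CPM to 130 and 188 CPM, and without RAS stood at 36.4, 31.0 and 28.8 CPM in FA, against 45.6, 30.2 and 34.7 CPM in 2iL (interaction -2.27, SE 0.26). Zeb1, a repressor of epithelial genes, and Fn1, fibronectin, fell in FA with RAS and had positive interactions of 1.62 and 1.44. Cdh3, P-cadherin, rose alike, by 1.87 and 1.74 (log2). Of 12 polarity, tight-junction and keratin genes, 3 were called, all negative (background 5.30%), with Cldn6 at -2.17 and Cldn3 at -2.42, whereas Cgn, the junction protein cingulin, rose alike (2.00 and 1.67).

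Of 13 cell cycle drivers, Mycn and Ccnd3 had positive (background 6.60%) and Myc and Cdk6 negative called interactions (background 5.30%). Mycn took the direction opposite to Myc: it stood at 44.7 and 37.2 CPM in FA with RAS and at 123, 142 and 169 CPM without, from 56.5 to 78.6 CPM in 2iL (interaction 1.87, SE 0.17, edgeR adjusted p 1.95e-08). Cdk6, a G1 kinase, rose with RAS (log2 1.09) and fell without (-1.22). Cdkn1a (p21) fell alike, in 15 of 22 settings, and edgeR called none of 14 p53 targets and none of 11 cholesterol synthesis genes (background 11.9%), of which 5 and 3 had an unadjusted p under 0.05. The p53 median was 0.23 (0.06 to 0.51 across processing settings), and that of cholesterol synthesis, -0.22, changed sign across them (-0.28 to 0.04).

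Among 17 glycolysis genes, 2 were positive (background 6.60%), 3 negative (background 5.30%) and 3 alike (background 1.73%). Pdk1, the kinase that restrains pyruvate dehydrogenase, rose from 19.5, 13.6 and 11.5 CPM to 150 and 148 CPM with RAS and stood at 9.25, 6.90 and 8.03 CPM in 2iL and 11.4, 10.8 and 10.2 CPM in FA without (interaction -2.88, SE 0.20, edgeR adjusted p 4.58e-10). By contrast the glucose transporter Slc2a1 and the enzymes Eno1 and Pkm rose alike, Slc2a1 by 2.13 and 2.01 (log2), though Slc2a1 stayed in that class in 12 of 22 settings. Hk2, a hexokinase, fell with RAS and was not called without (interaction 1.34). Of 12 genes of the integrated stress response, 4 were negative (background 5.30%): Slc7a11, Trib3, Chac1 and Asns, the last 3 of them with wide spread between the FA libraries with RAS. Chac1 stood at 45.2 and 80.9 CPM in FA with RAS and at 4.21, 5.31 and 2.98 CPM without. Asns (-1.05) lost its call in 13 of 22 settings, as did Phgdh (-1.02), the single call among 9 genes of threonine, glycine and serine metabolism (background 11.9%), in 9; without library 2 of the FA group with RAS their interactions were -0.45 and -0.67.

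Among genes with no group at the floor and a mean of at least 5 CPM in a group, and leaving out predicted genes and pseudogenes, the most positive interactions were those of Aqp3, a water and glycerol channel (6.59), Cdhr1, a photoreceptor cadherin (6.50), and Jam2, a junctional adhesion molecule (6.08). Jam2 fell from 132, 142 and 151 CPM to 1.69 and 1.37 CPM with RAS and stood at 130, 88.5 and 82.8 CPM in FA without. Cdhr1 fell with RAS, from 5.46, 3.21 and 4.41 CPM to 0.540 and 0.474 CPM, and rose without it, from 10.1, 5.58 and 6.00 CPM to 91.6, 68.7 and 65.7 CPM. The direction of the FA response was thus opposite in the 2 lines, as it was for Fat2, Msln, Lrrc15 and H2-Ab1 in the same group. Prdm14 and Pramef17 were also among them.

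By the same rule, the most negative were Col6a5, a collagen VI chain (-6.53), Ebf1, a helix-loop-helix factor of B cell development (-5.83), Cnr1, the cannabinoid receptor (-5.38), and Amot, angiomotin, a regulator of YAP (-5.36). Amot went from 0.700, 0.952 and 1.49 CPM to 157 and 91.2 CPM with RAS and from 1.13, 2.69 and 2.23 CPM to 4.51, 6.52 and 6.76 CPM without. Col6a5 reached 63.1 and 30.8 CPM with RAS and at most 1.01 CPM without. Fam19a4, Pcdh1, Fat3, Spry4 and Bcl6b followed, from -5.30 to -4.73. Of genes at the floor in some group, Cubn stood at 340 and 157 CPM in FA with RAS and at most at 0.526 CPM in every other library, and Hoxb1 at 10.6 and 10.1 CPM against at most 0.467 CPM. Ly6a, which belongs to a family of similar genes, went from 31.1 to 36.7 CPM to 0.108 and 0.142 CPM with RAS, and from 78.5, 63.3 and 71.8 CPM to 28.7, 12.0 and 4.64 CPM without.

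By that rule too, the largest rises that ran alike were those of Sema3c, a secreted semaphorin, Cgnl1, a junction protein, Mest, an imprinted hydrolase, and Cdkn1c (p57), an imprinted inhibitor of cyclin-dependent kinases. Cgnl1 went from 3.89, 3.99 and 4.09 CPM to 45.9 and 40.1 CPM with RAS and from 6.67, 4.92 and 6.44 CPM to 95.3, 76.9 and 82.8 CPM without, with an interaction of 0.39 (95% interval -0.05 to 0.83). Mest went from 18.4, 15.4 and 15.2 CPM to 177 and 141 CPM, and from 23.7, 21.1 and 16.4 CPM to 128, 166 and 193 CPM. Its FA ranges overlapped, as did those of Lrp2 (megalin), an endocytic receptor, at 487 and 515 CPM with RAS and 314, 531 and 724 CPM without. Mest and Lrp2 stayed in the alike class in all 22 settings tried, whereas Sema3c did so in 6 and Cdkn1c in 18.

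The largest falls that ran alike were led by Socs3 and by Slit2, an axon guidance ligand (log2 -3.16 and -2.75); they stayed in the class in 18 and 13 of 22 settings. Jak3, a cytokine receptor kinase, fell from 77.3, 70.8 and 72.9 CPM to 10.9 and 9.23 CPM with RAS and from 68.3, 74.5 and 78.5 CPM to at most 17.3 CPM, with a median of 14.5 CPM, without. Its interaction of 0.56 had an adjusted p of 0.00387 in edgeR's test, so a difference was detected that lay under the 2-fold limit (95% interval 0.28 to 0.84). Ckmt1, mitochondrial creatine kinase, fell by 2.83 and by 2.75 on the log2 scale.

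The genes called for FA only after RAS deletion were chosen by that call, which does not show that they had no response with RAS. Prmt8, an arginine methyltransferase, stood at 1.80 to 3.66 CPM in all 8 other libraries and at 38.0, 36.1 and 37.3 CPM in FA without RAS (interaction 3.89, SE 0.28, edgeR adjusted p 7.46e-10). Phf19, a Polycomb-like protein, stood at 2.73 and 3.74 CPM in FA with RAS and at 15.4 to 22.9 CPM without (interaction 3.66). Dpysl4, Rsph4a and Nuak1 were the other leading rises; Dpysl4 stood at 2.09 and 2.41 CPM in FA with RAS, above its 2iL libraries with RAS (1.12 to 1.35 CPM), and at 8.76, 10.7 and 15.1 CPM in FA without. The falls were led by Lad1, Spry2, Gpx2, Etv4 and Axin2; Gpx2, a glutathione peroxidase, went from 7.85, 8.07 and 7.89 CPM to 0.920, 0.729 and 0.935 CPM without RAS.

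Some markers of other cell types had called interactions, and in several lists these went both ways. In bulk RNA, fewer cells of a type and less RNA per cell cannot be told apart. The 10 primitive and visceral endoderm markers summed to 30.9 to 49.7 CPM in 2iL and 383 to 767 CPM in FA with RAS, and to 25.1 to 33.6 CPM and 115 to 193 CPM without. The sum without RAS was mostly Col4a1, a basement membrane collagen, at 175, 124 and 101 CPM in FA there. Without Col4a1 the other 9 summed to 12.7 to 18.96 CPM in 2iL and 261 to 511 CPM in FA with RAS, and to 10.7 to 16.4 CPM and 14.2 to 18.6 CPM without. Cubn, an endocytic receptor, made up much of the sum with RAS, at 340 and 157 CPM in FA. Of 8 tested, 6 (Gata6, Gata4, Pdgfra, Dab2, Amn and Cubn) had a negative called interaction (background 5.30%), and the calls of Gata4, Amn and Cubn were lost without single libraries (Gata4 without FA library 1 with RAS, adjusted p 0.0847). Afp, a defining marker, was at the floor in every group, and Ttr was at the floor in all but FA with RAS. Gata6, an endoderm determinant, rose with RAS from 6.86, 3.69 and 4.37 CPM to 24.9 and 13.6 CPM, and stood at 1.62, 1.26 and 0.719 CPM in FA without.

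Neural markers summed to 136 to 150 CPM in FA with RAS and 49.4 to 74.2 CPM without, against 39.5 to 77.3 CPM in 2iL. Nes had the highest CPM summed over the libraries. Without Nes, the other 8 summed to 11.3 to 17.9 CPM in 2iL and 122 to 124 CPM in FA with RAS. After RAS deletion these 8 summed to 8.87 to 10.2 CPM in 2iL and 18.5 to 32.4 CPM in FA. Sox11 stood at 75.3 and 73.1 CPM in FA with RAS and 5.78, 9.89 and 9.67 CPM without (interaction -3.50). The members went both ways: of 7 tested, Sox11 and Sox1 were negative (background 5.30%) and Six3, at most 1.22 CPM, positive (background 6.60%). Pax6 rose in both lines, and Nes was not called, at 26.3 and 13.9 CPM in FA with RAS and 55.7, 22.98 and 22.5 CPM without. Mesoderm and definitive endoderm markers summed to 18.6 to 20.95 CPM in 2iL and 32.6 to 38.7 CPM in FA with RAS, and to 20.1 to 23.6 CPM and 11.7 to 16.7 CPM without. Of 9 tested, Eomes, Sox17 and Lhx1 were negative (background 5.30%) and Gsc positive (background 6.60%); Eomes made up much of the FA sum with RAS, at 14.4 and 18.2 CPM. The calls of Six3 and Sox17 were lost without single libraries. Mesp1 was at the floor in all groups. Trophoblast markers summed to 106 to 133 CPM in 2iL, 20.8 to 28.3 CPM in FA with RAS and 62.3 to 73.8 CPM in FA without. Tfap2c, an AP-2 transcription factor, made up most of the 2iL sum, at 97.0 to 119 CPM; the other 7 summed to 8.70 to 13.6 CPM in 2iL, 12.0 to 14.3 CPM in FA with RAS and 22.7 to 25.4 CPM in FA without. Gata3, one of them, stood at 1.37 and 1.89 CPM in FA with RAS and at 18.3, 18.5 and 17.5 CPM without, from 2.76 to 6.01 CPM in 2iL (interaction 4.09, SE 0.31, edgeR adjusted p 1.89e-09), while Cdx2 and Hand1 had negative interactions. The 2-cell-like markers summed to 11.8 to 63.4 CPM with RAS and 73.0 to 378 CPM without, highest in RAS-deleted FA library 1, with none of 5 called for the interaction by edgeR and none at an unadjusted p under 0.05 (background 11.9%). Fibroblast markers summed to at most 5.93 CPM in every library, and the general pluripotent cell markers to 1082 to 1353 CPM. The part of other cell types in the interactions above was not tested.

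The ETS core CCGGAAG was searched on both strands in the 250 bases before each RefSeq gene start (build GRCm38.p6), because ERF and the PEA3 factors Etv1, Etv4 and Etv5 bind ETS sites. A gene counted as holding it if any of its windows did: 7.83% of all genes in the table and 13.6% of the 12852 tested genes with a window. Among genes with a smaller response without RAS the share was 5.59%, among alike genes 7.17%, among genes called only without RAS 5.58%, and among those with a larger response 2.94% (34 genes). A match is a description of these letters, not of a bound site. Of the named genes with a window, Ccnd3 and Map3k6 carried it, and their windows are shown as 1 example each of a smaller and an alike response, with the motif in capitals. The window of Ccnd3, chr17:47593217-47593466 on the plus strand, is the second of those listed for that gene, and its motif starts at position -138 from the gene start. The window of Map3k6, chr4:133240568-133240817 on the plus strand, has it at -169.
Ccnd3: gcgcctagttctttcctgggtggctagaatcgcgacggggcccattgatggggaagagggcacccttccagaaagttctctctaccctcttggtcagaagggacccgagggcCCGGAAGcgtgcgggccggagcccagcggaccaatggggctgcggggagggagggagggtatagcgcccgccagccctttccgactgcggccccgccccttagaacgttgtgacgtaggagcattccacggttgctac
Map3k6: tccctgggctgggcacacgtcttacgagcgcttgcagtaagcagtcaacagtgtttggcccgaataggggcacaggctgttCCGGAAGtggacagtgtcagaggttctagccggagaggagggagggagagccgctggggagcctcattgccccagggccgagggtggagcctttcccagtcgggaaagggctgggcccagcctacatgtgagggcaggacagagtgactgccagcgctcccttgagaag
Ccnd3, cyclin D3, fell with RAS from 184, 227 and 232 CPM to 57.2 and 73.9 CPM, and stood at 133, 145 and 135 CPM in FA without (interaction 1.37, SE 0.15, edgeR adjusted p 2.73e-07). Map3k6, a kinase of the stress-activated cascade, was placed among the alike falls in 14 of 22 settings.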

How the data were processed

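The authors deposited a count matrix of 23 libraries and, per library, estimated counts, an effective length in bases and TPM (transcript abundance per library) per gene symbol, in Salmon's columns per the file headers. The matrix equals the rounded estimated counts. The submitters' processing notes name bcl2fastq 2.20.0, fastp 0.20.0, Salmon and mm10. Libraries were directional, depleted of ribosomal RNA and read as 75 bp pairs, per the labels' protocols. Salmon shares reads among similar transcripts, so close paralogs are less certain. The deposited TPM values were not used, and the effective length, another deposited measure, served 1 alternative.

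Rounded expected counts were tested in edgeR 4.0.16 (R 4.3.3; filterByExpr, TMM, robust quasi-likelihood, 1 model of 23 libraries in 8 groups; Benjamini-Hochberg adjustment over 20372 genes; threshold 0.05 and 2-fold). Standard errors are the absolute log2 value over the square root of F. CPM uses the TMM-scaled library size. A group with at most 3 counts in every library is at the floor, and such genes are given by level. Pairs of replicates differed by a chi-square per degree of freedom of 3.04 to 44.9, so none agreed within sampling noise. Without molecular identifiers, counted reads need not stem from separate molecules.

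The 18 gene lists and 7 marker lists were chosen with earlier results of these data known, and so were the classes and tests; list counts are descriptions. The genes named are, per list, up to 4 called interactions by size and up to 3 alike members, plus the 10 most extreme calls of each sign with a mean of at least 5 CPM in a group, the 10 largest alike rises and falls, the 5 largest rises and falls called only without RAS, up to 4 floor genes of each sign and the target genes; predicted genes and pseudogenes were passed over, not all are printed, and list members outside this rule were named after their values were seen. One more target gene and a few genes that this rule names are left out. Promoter windows came from RefSeq (GRCm38.p6). The test was tried on simulated data. Alternatives were DESeq2 1.42.0, limma 3.58.1 voom, other scalings and filters, a replicate block, effective lengths, other thresholds and leaving out libraries.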

Additional observations from a re-analysis of the deposited data

Results flagged for a closer look

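The FA response differed between the lines with and without RAS for 2425 genes by the interaction test itself (edgeR, adjusted p under 0.05 and at least 2-fold). Among them, 109 genes, of the 20372 tested, were called in opposite directions in the 2 lines. Of these, 43 were higher in FA with RAS and lower without, and 66 were lower with RAS and higher without. Some had a group at the floor, such as Lrat, Uroc1 and Slc26a9 in FA with RAS, so the size of their fold changes is uncertain. Cdhr1, Fat2, Msln, Lrrc15, H2-Ab1 and Gata3 are of the second kind, and Il17rd, Spred1, Gata6, Slc7a11 and Cdk6 of the first.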

How the results depend on the processing

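Of the choices tried, the 2-fold minimum moved the counts most: without it the interaction was called for 4988 genes (2610 positive, 2378 negative), with 3613 smaller, 214 larger, 2463 alike and 1061 called only without RAS. The alike class held 78 genes with an interval within 1.5-fold and 230 when the genes were chosen in the line labelled ERF knockout. The motif share of tested genes was 17.3% over 300 bases. Other settings gave 1990 (only the 11 libraries) to 2650 (no low-count filter) interaction calls, DESeq2 gave 2360 (2264 of them shared with the 2425), and every shared call kept its direction. The 11 libraries alone gave 1202 positive and 788 negative calls, and limma voom 1164 and 1301. Leaving out 1 library gave 2211 to 2480 calls (1244 to 1408 positive, 889 to 1175 negative), 1503 to 1761 smaller, 36 to 72 larger, 283 to 447 alike, 357 to 483 called only without RAS and 2643 to 2989 undecided, and mean slopes of 1.00 to 1.04 with RAS and 0.444 to 0.527 without. With the replicate number as a block in a fit of only the 11 libraries, 2124 genes were called, against 1990 in that fit without the block. Of the 2124, 1977 were shared with the 2425. Of 15 same-numbered pairs of libraries 8 had correlated deviations above 0.1 (-0.0795 to 0.380). The 8 were all 3 pairs between the 2iL groups (0.175 to 0.380), all 3 between 2iL and FA without RAS (0.106 to 0.313) and 2 of 3 between 2iL with RAS and FA without; none of the 6 with an FA library with RAS was among them. Same-numbered libraries thus deviated together in 3 of the groups, but not every pair passed 0.1, and the block was kept as an alternative. Leaving out the 4 libraries numbered 1, an alternative chosen after seeing the data, gave 2412 calls. Of 125 called genes that were named by rule or are list members, 94 were called in all 22 settings, 31 were not and none reversed. Lost without 1 library were Lef1, Amn, Ascl2, Asns, Cubn, Egr1, Fos, Gata4, Has2, Hoxb1, Krt19, Lifr, Mael, Mov10l1, Pfkl, Phgdh, Rnf43, Serpina3h, Six3, Sox17, Stk31, Utf1 and Vim; the cause was not tested.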
